A study of Mus musculus with 6 samples.

Results

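The genes described here are the 10 IL-7 receptor pathway genes Il7r, Il2rg, Jak1, Jak3, Stat5a, Stat5b, Cish, Socs2, Il2ra and Kit, taken from a fixed list of names out of 22359 protein-coding genes of GENCODE M1 with an annotated coding start. For each gene the window was the gene body plus 20 kb on either side, on mm9, and every entry of the 3 deposited peak lists that touched a window was kept. The lists come from ChIP-seq for H3K27ac, a histone mark of active promoters and enhancers, for H3K4me3, a mark of active promoters, and for Pax5, the transcription factor that fixes B lineage identity. The cells were RAG-/-µ+ pre-B cells, from the bone marrow of C57BL/6 mice of both sexes, 6 to 14 weeks old, which carry a rearranged IgM transgene in all samples. Without RAG these cells make no rearrangements of their own, so they are held at the stage that the transgene allows. Each list comes from 1 library, with no second group and no read counts, so its depth is unknown and no value below has a replicate check or a test. The 3 input samples are not analysed here.

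IL-7 is the cytokine on which developing mouse B cells depend for survival and division. It binds the IL-7 receptor α chain (Il7r) together with the common γ chain (Il2rg). These chains carry the kinases Jak1 and Jak3, which phosphorylate Stat5a and Stat5b, and STAT5 then enters the nucleus and binds DNA at its own sites. Cish and Socs2 are STAT5 target genes whose products inhibit cytokine signalling. Il2ra encodes CD25, a chain of the IL-2 receptor that is used as a surface marker of pre-B cells, and Kit encodes the receptor for stem cell factor, which is on the surface of pro-B cells and is lost as they become pre-B cells.

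A few sequences carry what was found at these loci. All are from mm9, 5′ to 3′ on the strand of the gene, and were read from the central 300 bp of a peak, since the lists give no summits. The STAT5 site was searched as TTCNNNGAA, which reads the same on both strands, and the core of the Pax5 site as GCGTGAC or GCATGAC on both strands. Capitals mark the matches. The first 3 stretches of 30 bases hold the paired STAT5 sites of the Cish and Socs2 starts, and the fourth holds the site of an Il2ra intron peak that Pax5 also overlaps.
Cish start, first pair, chr9:107198985-107199014, plus strand: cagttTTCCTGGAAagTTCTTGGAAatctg
Cish start, second pair, chr9:107199093-107199122, plus strand: ggTTCTAGGAAgatgaggcTTCCGGGAAgg
Socs2 start, chr10:94879533-94879562, minus strand: gcggaTTCCTGGAAagTTCCTGGAAagcgg
Il2ra intron, chr2:11580908-11580937, plus strand: ggaagaggccTTCCAGGAAcatgctgaggg

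The Pax5 peaks at the start of Il7r and in an intron of Kit are shown whole over their central 300 bp, the first with its STAT5 match and the second with its Pax5 core match on the opposite strand.
Il7r start, chr15:9459672-9459971, minus strand: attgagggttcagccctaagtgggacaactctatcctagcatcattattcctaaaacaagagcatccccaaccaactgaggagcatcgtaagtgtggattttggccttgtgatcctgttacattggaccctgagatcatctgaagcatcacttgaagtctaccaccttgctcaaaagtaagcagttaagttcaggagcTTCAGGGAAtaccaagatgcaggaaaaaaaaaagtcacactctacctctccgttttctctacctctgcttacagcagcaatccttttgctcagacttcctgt
Kit intron, chr5:76000586-76000885, plus strand: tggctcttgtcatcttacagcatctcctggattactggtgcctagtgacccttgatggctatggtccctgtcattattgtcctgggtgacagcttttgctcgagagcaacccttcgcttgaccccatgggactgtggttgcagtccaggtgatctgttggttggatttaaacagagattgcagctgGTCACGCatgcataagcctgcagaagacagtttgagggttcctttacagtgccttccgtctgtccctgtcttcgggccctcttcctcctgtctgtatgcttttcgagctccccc

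At the starts, H3K4me3 was found at all 10 genes, H3K27ac at 9 and Pax5 at 6. A start was any annotated start of a coding transcript, and an entry within 1000 bp of it was counted. Among all protein-coding genes, 52.6% had an H3K4me3 region at a start, 48.3% an H3K27ac peak and 37.4% a Pax5 peak. Kit was the gene without H3K27ac, and Il2rg, Jak3, Cish and Il2ra were those without Pax5. Il7r, Jak1, Stat5a, Stat5b and Socs2 had all 3, which 34.3% of all genes had.

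Whole windows held more than the starts. Counting each entry once, since the windows of Stat5a and Stat5b overlap, there were 119 H3K27ac peaks, 31 H3K4me3 regions and 19 Pax5 peaks. Of the H3K27ac peaks, 22 lay at a start of one of the 10 genes, 12 at the start of a neighbouring gene only and 85 at no coding start. Over the whole list, 25.2% of the H3K27ac peaks lay at a coding start. The peaks away from the members' starts comprised 10 that touched an exon, 38 in introns, 22 in upstream and 27 in downstream flanks. Of the H3K4me3 regions, 12 were at a member's start, 9 at that of a neighbour and 10 at none, against 35.0% away from any start in the whole list, and each of the 10 overlapped an H3K27ac peak. Of the Pax5 peaks, 8 lay at a member's start, 3 at that of a neighbour and 8 at none. No whole-list share was computed for these Pax5 places or for the overlap of the 10 H3K4me3 regions with H3K27ac. These counts are therefore given without a comparison.

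The label of the cells was checked at the starts of marker genes. All 10 B lineage markers had H3K27ac and Pax5, and 8 had H3K4me3, the exceptions being Vpreb1 and Igll1. Of 19 markers of T, myeloid, erythroid and mast cells, 8 had H3K27ac, 6 had H3K4me3 and 1, Gata3, had Pax5. The shares of all protein-coding genes given above are 48.3%, 52.6% and 37.4%. Neither histone mark exceeded its share over the 19 markers, but the cell types differed. H3K27ac was at 5 of 6 myeloid markers, with a highest score per gene from 8.01 to 19.8. It was also at 3 of 4 erythroid markers, with scores from 14.1 to 33.4. Both of these groups were above the 48.3% of all genes. Of the T cell markers 0 of 6 had H3K27ac, and of the mast cell markers 0 of 3. Elane and Gata1 had no entry in any list at their starts, nor did the mast cell markers Cpa3, Mcpt4 and Fcer1a. Whether other cell types add to the peaks described below was not tested.

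Il7r is on chromosome 15 from 9435916 to 9459631 on the minus strand, and no other annotated gene lies within its window. An H3K27ac peak of 4298 bp, from 9456202 to 9460499 and with a score of 45.9, covered its start and the first part of the gene. The score is the number that the authors' peak caller gave, on a scale the list does not name, and can be compared only within a list. The peak was the 549th widest of 69345, and among genes with H3K27ac at a start, 65.9% had a lower highest score than Il7r. The H3K4me3 region at the start was 3175 bp wide, wider than that of 96.4% of genes with such a region, where the median was 1480 bp. Il7r therefore had, with Socs2, one of the 2 widest H3K4me3 regions of the 10 genes.

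Pax5 touched 4 places around Il7r. At the start it had a score of 176, from 9459275 to 9460369, and 29.8% of genes with Pax5 at a start had a lower score. Another peak, with a score of 116, lay in the downstream flank inside a run of 5 H3K27ac peaks that spans 7092 bp, from 9418088 to 9425179. These 5 peaks had scores of up to 27.2. Further downstream, an H3K27ac peak with a score of 29.6 coincided with an H3K4me3 region of 1650 bp, 44067 bp from the start of Il7r and at no coding start. The remaining Pax5 peaks, with scores of 193 and 98.0, lay in the upstream flank, with midpoints at -9995 and -19257 bp from the start, where negative distances are upstream. They overlapped neither histone mark. The nearer of them held a STAT5 match and the farther a Pax5 core. Whether the sequences under the downstream and upstream flank peaks are repeated elsewhere in the genome was not tested. The study's methods keep reads with a few equally good positions, but name a later version of the aligner than the sample labels do. If such reads were also kept for the deposited lists, those from a repeated stretch could count at these peaks.

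Il2rg, the common γ chain gene on chromosome X from 98459717 to 98463594, had 3 H3K27ac peaks at its starts, the highest with a score of 30.5 from 98462724 to 98463612. An H3K4me3 region of 750 bp overlapped this peak, and one of 275 bp overlapped the neighbouring peak with a score of 8.16. The wider region exceeded that of 11.3% of marked genes. No Pax5 peak was found anywhere in its window. Gm20489, a coding gene annotated over the same sequence, starts at 2 of these peaks and at the wider region, so the marks cannot be assigned to one of them. Except for 1 peak with a score of 5.26, all other H3K27ac in the window lay at the starts of Foxo4 and Med12.

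Il2ra had the strongest H3K27ac of the 10 genes, and it was not at the start. The gene lies on chromosome 2 from 11564419 to 11614818, plus strand. The peak upstream of it, from 11555534 to 11560687, was 5154 bp wide with a score of 129.5, rank 344 by score and 303 by width of all H3K27ac peaks, with its midpoint at -6308 bp from the start. A pair of Pax5 peaks lay within it, with scores of 105 and 219, together with an H3K4me3 region of 225 bp. At the start itself, H3K27ac had a score of 39.8 over 3517 bp and H3K4me3 was 2150 bp wide, but Pax5 was not listed.

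The first part of the Il2ra gene held 2 further runs of H3K27ac. The first, from 11574069 to 11577439, had 4 peaks with scores of up to 35.0. The second, from 11580720 to 11586431, had 6 peaks, the highest of which had a score of 39.8 (11584937 to 11586431). A Pax5 peak with a score of 215 overlapped the first 2 peaks of this run. The STAT5 match shown above lies in the first of them, which had a score of 8.95. STAT5 matches were also in peaks of the first run with scores of 8.16 and 10.2, and in a start peak scored 7.40. An upstream flank peak scored 14.9 and a downstream flank peak scored 3.97 held matches as well. The upstream peak with the score of 129.5 and the highest peak of each run held none in their central 300 bp. H3K27ac covered 24.2% of the Il2ra window, the highest share of the 10 genes, against a median of 2.02% over all genes. The window reaches the start of Il15ra, the IL-15 receptor α chain gene, where H3K27ac had a score of 42.2 and H3K4me3 was 1625 bp wide.

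Kit had the least H3K27ac of the 10 genes. Around this gene, on chromosome 5 from 75970941 to 76052747, plus strand, there was 1 H3K27ac peak, with a score of 6.66, which lay inside the gene 75633 bp after the start. That peak held a STAT5 match in its central 300 bp. H3K27ac covered 0.206% of the window. At the start there was a 250 bp H3K4me3 region, narrower than that of all but 2.69% of marked genes, and a Pax5 peak with a score of 178. Of genes with H3K4me3 at a start, 14.0% had no H3K27ac there. Mast cells also carry the Kit receptor, and their 3 markers had no entry at a start, as given above. Whether mast cells add to the entries at Kit was not tested.

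The highest Pax5 score of all 10 windows was in an intron of Kit. This peak, from 76000382 to 76001090, had a score of 757, rank 1231 of 15445, and lay 29756 bp after the start with neither H3K27ac nor H3K4me3. In the whole Pax5 list, 15.7% of the peaks overlapped neither mark. Among the 1231 peaks with at least this score there were 50 such peaks, or 4.06%. Its central 300 bp hold GTCACGC, the Pax5 core on the opposite strand, which is the only core match among the Pax5 peaks of the windows besides that in the peak farthest upstream of Il7r. The map of the receptor genes sets these loci side by side.

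**Figure D1:**
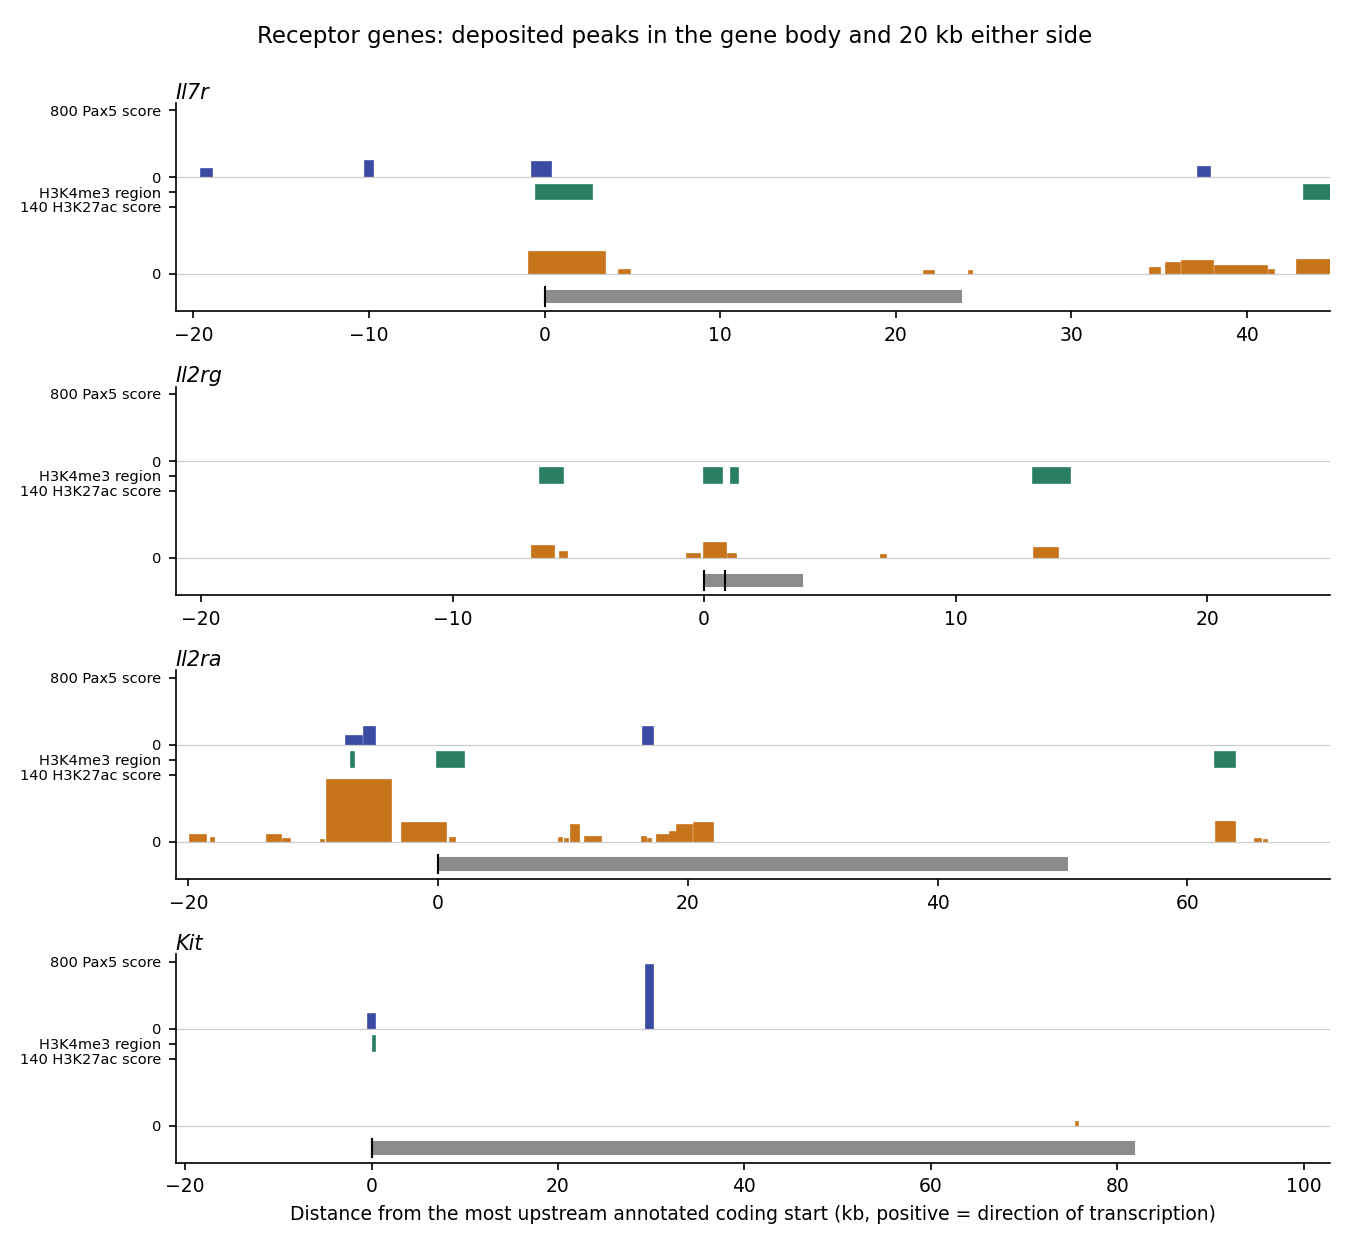
Peaks in the windows of Il7r, Il2rg, Il2ra and Kit by distance from the most upstream coding start in kb, with Pax5 (blue, height is the score), H3K4me3 regions (green, no score) and H3K27ac (orange, height is the score) above the gene body (grey, black ticks are coding starts). Il2ra has its highest H3K27ac peak, with a score of 129.5, upstream of the start, while Kit has a Pax5 peak with a score of 757 in an intron and 1 H3K27ac peak with a score of 6.66.

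Jak1 and Jak3, the kinases bound to the 2 receptor chains, differed in how much of their windows each list covered. H3K27ac covered 10.2% of the Jak1 window and 5.13% of the Jak3 window. The order was reversed for H3K4me3, with 1.41% and 4.51%, and for Pax5, with 0.592% and 2.37%. The Jak3 shares include neighbours, with H3K4me3 regions of 400 and 1075 bp at Unc13a and B3gnt3 and the window's only Pax5 peak, at Unc13a. At the genes' own starts, H3K4me3 was 1600 bp wide at Jak1 and 975 bp at Jak3, and Pax5 was at Jak1 only. The genes are 112916 and 14280 bp long, so their windows also differ in size. Jak1 is on chromosome 4 from 100824972 to 100937887, minus strand, and had 25 H3K27ac peaks, more than 98.4% of genes, although it is also the longest of the 10 genes. At its starts lay 2 H3K27ac peaks with scores of 20.9, with a STAT5 match, and 12.3, without one, an H3K4me3 region of 1600 bp and a Pax5 peak with a score of 243.5, the highest Pax5 score at a start of the 10 genes. The strongest H3K27ac in Jak1, with a score of 33.5 over 3316 bp, was far inside the gene, from 100856506 to 100859821, in a run of 6 peaks spanning 7516 bp. Starts of 2 non-coding Jak1 transcripts lie in that peak. The neighbouring peak of the run, with a score of 26.9, held an H3K4me3 region of 550 bp, and no Pax5 peak was listed there.

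Jak3 is on chromosome 8 from 74200195 to 74214474, plus strand. At its starts were 3 H3K27ac peaks with scores of 8.95, 15.0 and 10.2 and an H3K4me3 region of 975 bp. The highest of these scores was the lowest maximum among the 9 genes with H3K27ac at a start. The coding gene Gm9933 starts at the same peaks on the other strand. The single Pax5 peak in the window, with a score of 113.5, was at the start of the neighbouring Unc13a with an H3K4me3 region of 400 bp and no H3K27ac.

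Stat5a (chromosome 11, 100720665 to 100746483, plus strand) and Stat5b (100642045 to 100712038, minus strand) are read away from each other from starts 8627 bp apart. Their windows share 9 H3K27ac peaks, 3 H3K4me3 regions and 2 Pax5 peaks. These genes arose by duplication, and the study's methods keep reads with up to 3 best positions. If this also holds for the deposited lists, reads from identical stretches of both genes could count at either. At the Stat5a starts the H3K27ac scores were 17.9, 27.5 and 4.99, the H3K4me3 region was 1225 bp wide and Pax5 had a score of 193. The peak with the score of 27.5 held 2 STAT5 matches in its central 300 bp. The outer start of Stat5b had H3K27ac scores of 12.3 and 8.16, between the lowest and the higher scores at Stat5a, a wider H3K4me3 region of 1700 bp and a Pax5 score of 125.

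The stronger H3K27ac of Stat5b was at a second coding start inside the gene, at 100683842. There, a peak of 1957 bp had a score of 30.5, with an H3K4me3 region of 425 bp and a Pax5 peak with a score of 205. This internal start thus had higher H3K27ac and Pax5 scores than the outer one, with the narrower H3K4me3 region. Past the end of Stat5b, from 100635511 to 100639254, an H3K27ac peak of 3744 bp with a score of 38.4 overlapped a Pax5 peak with a score of 106 and 2 H3K4me3 regions of 325 and 25 bp. It lies over an annotated 7SK gene copy and at no coding start. The remaining Pax5 peak of the window, with a score of 95.7, was at the start of Hcrt.

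Among the STAT5 targets, Cish is on chromosome 9 from 107198357 to 107205115, plus strand. A single H3K27ac peak of 1371 bp with a score of 20.9, from 107198379 to 107199749, and an H3K4me3 region of 1425 bp lay at its starts, without Pax5. The centre of that peak holds 4 STAT5 matches, printed above as pairs. Of the 69345 H3K27ac peaks, 8.65% had at least 1 match in their central 300 bp, 0.415% at least 2, and the Cish peak was the 1 peak with at least 4. The RefSeq promoter of Cish holds 2 of them, the first pair.

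The strongest H3K27ac in the Cish window was not at Cish but at the start of Mapkapk3, a kinase gene on the other strand, with a score of 55.1 and an H3K4me3 region of 2025 bp that also held a Pax5 peak with a score of 119. Downstream of Cish, an H3K27ac peak with a score of 28.3, from 107214883 to 107216067, held another STAT5 match and no other mark. H3K27ac covered 21.8% of the Cish window, second to Il2ra. This share includes the peaks at the starts of Mapkapk3, and the peak at the Cish starts was 1371 bp wide.

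Socs2 (chromosome 10, 94847996 to 94879814, minus strand) had the widest H3K4me3 region at a start, 3850 bp from 94876753 to 94880602, the 168th widest of 17979. Within it were 4 H3K27ac peaks with scores from 6.98 to 17.5 and 2 Pax5 peaks with scores of 179 and 151. The centre of the second Pax5 peak holds the paired STAT5 matches shown above, which are of the same spacing as the first pair at Cish. At least 2 matches were present in 0.356% of all Pax5 peaks. The strongest H3K27ac of Socs2 was in an intron, from 94857336 to 94862094, with a width of 4759 bp and a score of 79.1, rank 1490 of the list. It overlapped 3 H3K4me3 regions of 1100, 650 and 325 bp and no Pax5 peak. Il2ra, Jak1, Stat5b, Cish and Socs2 thus each had, away from any coding start, an H3K27ac peak with a higher score than those at their own starts, whereas Il7r, Il2rg, Jak3 and Stat5a had none. The share of all genes with such a peak was not computed, so this is given without a comparison. Among these genes the number of H3K27ac peaks per window also differed, from 6 at Jak3 to 25 at Jak1.

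**Figure D2:**
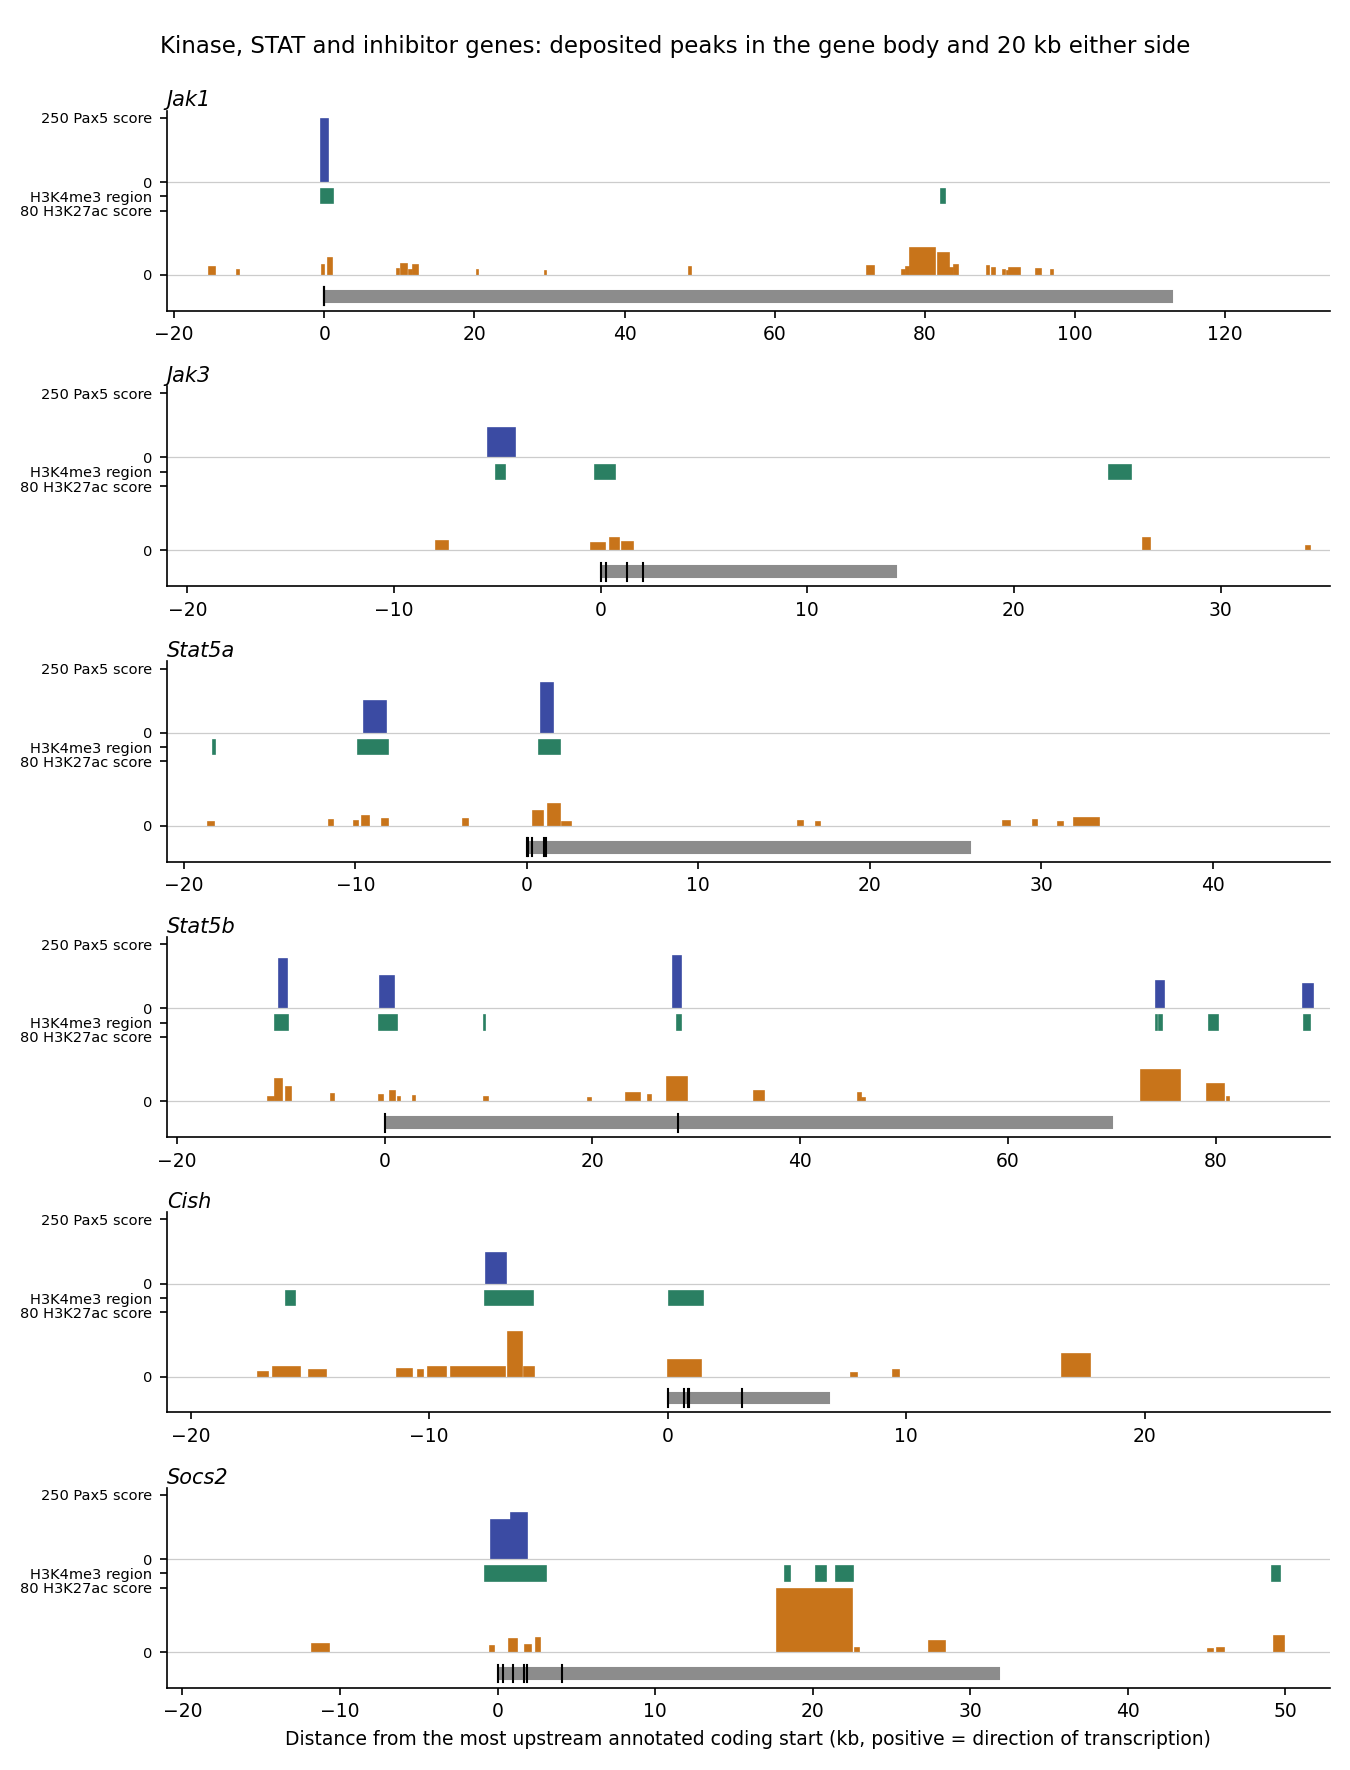
Peaks in the windows of Jak1, Jak3, Stat5a, Stat5b, Cish and Socs2 drawn as for the receptor genes, by distance in kb, with smaller score scales (H3K27ac to 80, Pax5 to 250). Socs2 has an intron H3K27ac peak with a score of 79.1 and 3 H3K4me3 regions, Jak1 a run of 6 H3K27ac peaks inside the gene, and Stat5b marks at an internal coding start.

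The values at the starts can be set beside those of all genes. For the 9 genes with H3K27ac at a start the highest score ranged from 15.0 to 45.9 with a median of 27.5, and over all 10796 genes with such a peak the median was 32.1. The H3K4me3 widths ran from 250 to 3850 bp with a median of 1510 bp, against 1480 bp for all. Pax5 scores at the 6 bound genes lay within 176 and 243.5 with a median of 186, each below the median of 269 over all 8366 genes with Pax5 at a start. The other 4 members have no Pax5 value at a start. The plot of values at starts shows this.

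**Figure D3:**
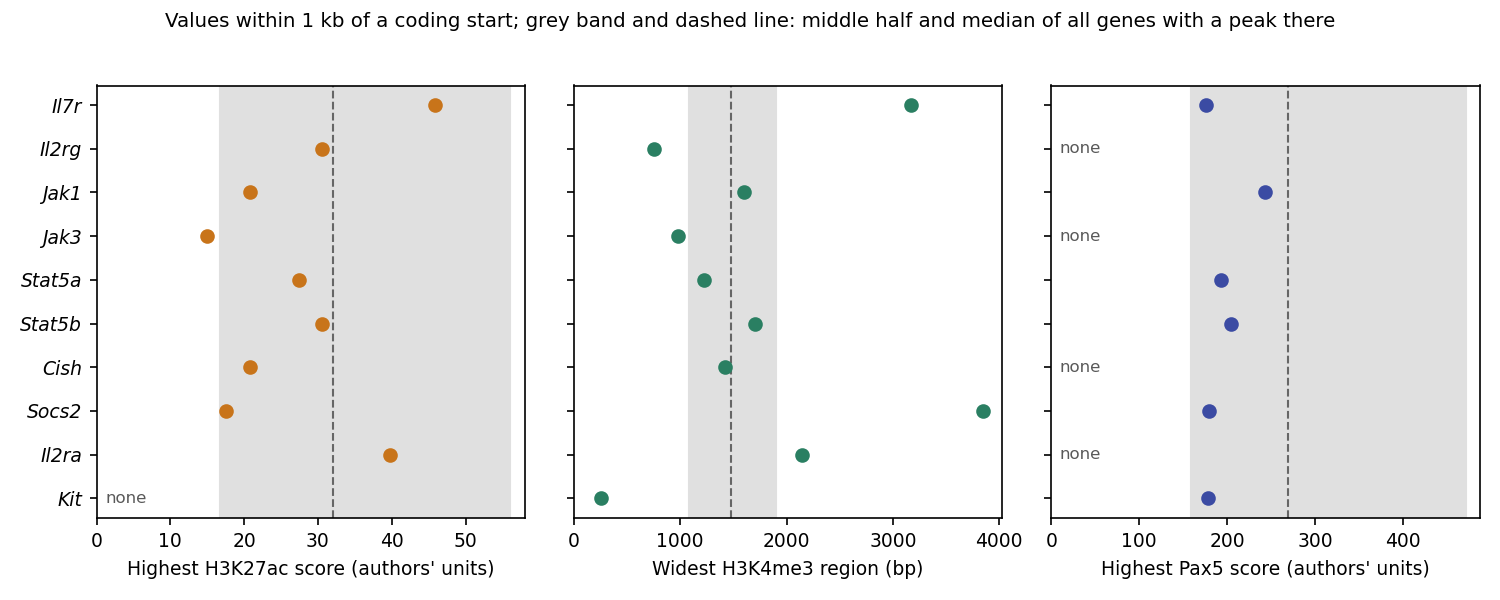
Highest H3K27ac score, widest H3K4me3 region (bp) and highest Pax5 score within 1 kb of a coding start of each of the 10 genes, 1 point per gene, with the median (dashed) and interquartile range (grey) of all genes with an entry there. The 6 Pax5 points lie between 176 and 243.5, below the median of 269, and Il7r and Socs2 have the widest H3K4me3.

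Along whole lists, 66 of the 119 H3K27ac peaks and 4 of the 19 Pax5 peaks were above the list's median score, which was 8.52 for H3K27ac and 207 for Pax5. The 4 Pax5 peaks were the Kit intron peak, that at the Jak1 start, the stronger of the upstream Il2ra peaks and the Il2ra intron peak. Thus 1 of the 6 genes with Pax5 at a start, Jak1, had it above that median. The median is over peaks, while a gene counts by its highest peak at a start. Of all genes with Pax5 at a start, 37.4% had a highest score below the 205 of Stat5b, which is close to that median. Of the 19 Pax5 peaks, 13 overlapped H3K27ac, against 79.3% of all Pax5 peaks. A further 3 overlapped H3K4me3 only, at Kit, Unc13a and Hcrt, and the last 3 overlapped neither mark, being the Kit intron peak and both upstream peaks of Il7r. The plot of ranks places all of them in the lists.

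**Figure D4:**
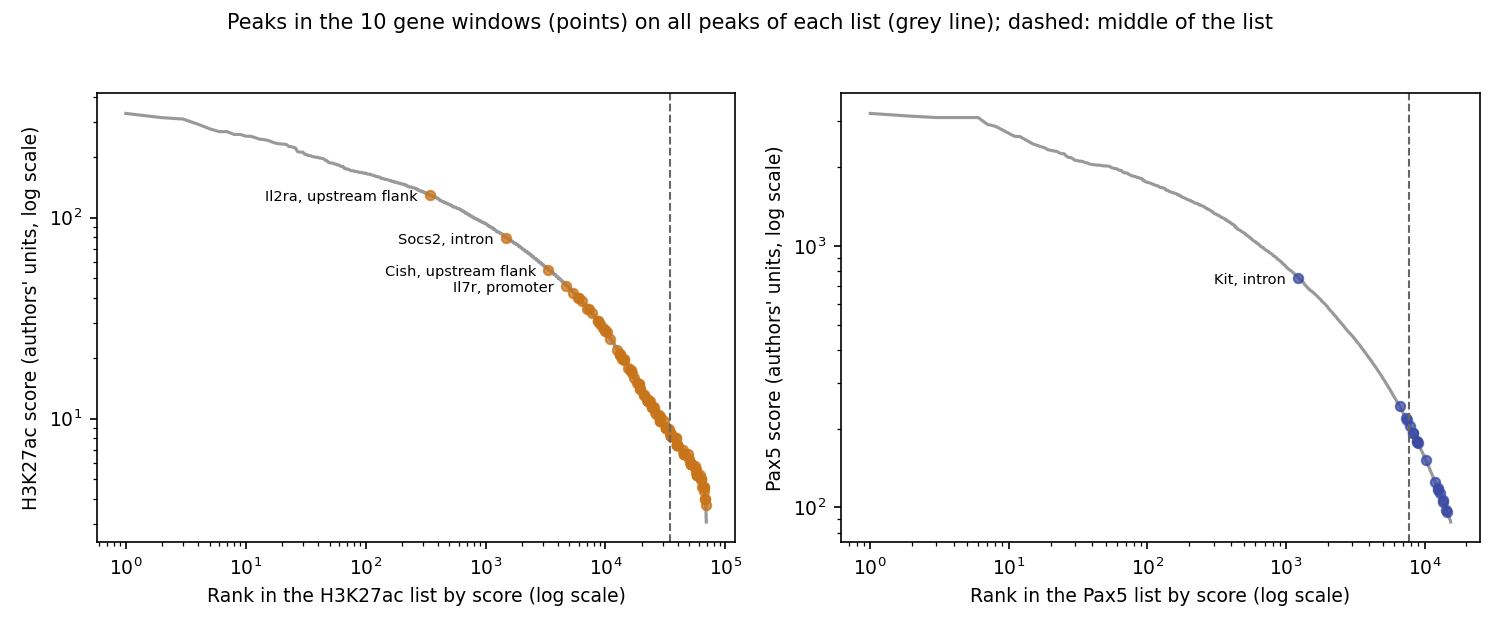
Score of each H3K27ac (left) and Pax5 (right) peak in the 10 windows (points) against its rank in the deposited list (grey line), both axes logarithmic, with the middle of the list dashed. The upstream Il2ra peak is rank 344 of the H3K27ac list, and 1 Pax5 peak, in Kit, stands apart from the other 18 at rank 1231.

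A STAT5 match was present in the central 300 bp of 14 of the 119 H3K27ac peaks (11.8%) and 3 of the 19 Pax5 peaks (15.8%), against 8.65% and 8.07% of the whole lists. The Pax5 core was in 2 of the 19 Pax5 peaks, or 10.5%, and in 9.65% of all. The forkhead site TGTTTAC, searched on both strands because Foxo factors are known to act on Il7r, was in 10 of the 119 H3K27ac peaks (8.40%, against 3.90% of the list) and in 0 of the 19 Pax5 peaks. In the Il7r window the only forkhead match lay in a downstream flank peak with a score of 7.40. The others were in the windows of Il2rg, Jak1, Stat5a, Stat5b, Socs2 and Il2ra. The RefSeq table of promoters, of 300 bp on GRCm38.p6, had 12 entries for 9 of the genes, without Socs2. Each entry was found once, letter for letter, in mm9. The Cish and Il7r promoters held STAT5 matches, as did 8.30% of all 32851 promoters. No member's promoter held the Pax5 core or the forkhead site, which were in 4.23% and 3.65% of all.

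Other genes of the pathway were read at their starts from a list of 40 ordered by role and chosen with earlier results of these data known. Of these, 34 had H3K27ac, 35 had H3K4me3 and 24 had Pax5, where the shares of all protein-coding genes are 48.3%, 52.6% and 37.4%. All 11 targets and effectors had both histone marks and 9 had Pax5. Among them, Mcl1, which protects from cell death, had a Pax5 score of 1742 and Foxo3 one of 1402. Lyn, a kinase of the Src family, had the highest H3K27ac score of the list, 117, with a Pax5 score of 1275. It was followed by Stat6, the STAT of IL-4 signalling, with an H3K27ac score of 111, and by Ptpn6, which encodes the phosphatase SHP-1, with 87.5. The 24 genes had a median Pax5 score of 379, while that of the 6 members was 186.

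The genes without any entry at a start were Il2 and Tslp, which encode cytokines, Il2rb, the β chain of the IL-2 receptor, and Il9r. The gene of the cytokine itself, Il7, had an H3K27ac score of 9.93, an H3K4me3 region of 1200 bp and a Pax5 score of 225. Crlf2, whose product pairs with the IL-7 receptor α chain to bind TSLP, had all 3, with scores of 34.5 for H3K27ac and 501 for Pax5.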

How the data were processed

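Per the labels, the authors aligned reads to mm9 with Bowtie 0.12.9 and used MACS 1.4.2, while the methods of the study name a later Bowtie, keep reads with up to 3 best positions and state that duplicates were removed first. The deposited H3K27ac list gives a score per MACS peak, and the deposited Pax5 list gives a score per MACS peak called against input. MACS settings are stated for other factors, and those for these lists, like the scale of the scores, are not given in the sources used here. For H3K4me3, the authors deposited only the positions of 782636 bins of 25 bp, and bins up to 100 bp apart were joined. Nothing was pooled, since each list is 1 library, and depth is unknown, so no counting interval is given.

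Starts, exons and genes were taken from GENCODE M1 on NCBIM37 (mm9), and 0 entries ended beyond a chromosome. An overlap of 1 bp counted. Widths and scores were ranked within each list, and no test was run. Scripts were tested on simulated lists. Members and gene lists were chosen with earlier results of these data known. Named genes were all members, the 3 highest H3K27ac and Pax5 scores and every unmarked gene of the wider list, and neighbours at whose start a peak lay. Il7 and Crlf2 were chosen after their values were seen. Python 3.11.15, numpy 2.4.6 and matplotlib 3.10.9 were used.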

Additional observations from a re-analysis of the deposited data

How the results depend on the processing

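No paired analysis was possible because no antibody has a second library. Of 32 alternatives, 24 left the count within 1.5 times its value, among them promoters of 500 and of 2500 bp, the starts of all transcripts and the midpoint of a peak for the members' starts. By the midpoint, 7 genes had H3K27ac at a start, without Il7r and Il2ra, and 9 had H3K4me3, without Il7r. With the higher-scoring 50% of the H3K27ac list, 67 of its peaks remained in the windows. With the higher-scoring 50% of the Pax5 list, 1 member had Pax5 at a start, and 4 Pax5 peaks remained, 3 of them at a peak of the whole H3K27ac list. Fewer peaks remain there by construction, and H3K4me3 has no scores. With a flank of 5 kb, the windows held 79 H3K27ac peaks, 20 H3K4me3 regions and 12 Pax5 peaks, and with 50 kb, 30 Pax5 peaks. Scores from 1 library and of unknown scale limit every ranking, and a gene with no peak may have signal below the authors' threshold.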

Other observations

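Several entries of the windows belong to genes outside the IL-7 pathway and are given as values only. At the start of Foxo4 past the end of Il2rg, H3K27ac had a score of 19.8 and H3K4me3 was 1475 bp wide. Med12 had H3K27ac scores of 11.4 and 25.0 and a 925 bp H3K4me3 region. At Ghdc, beyond the end of Stat5b, the values were 21.1 and 925 bp. B3gnt3, near Jak3, had an H3K27ac score of 15.9 and an H3K4me3 region of 1075 bp, and Gm17355, near Il2ra, had H3K27ac alone with a score of 8.52. Of these genes none had a Pax5 peak at the entries named.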
